A study of Drosophila melanogaster with 12 samples.

Results

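Odorant receptor (Or), gustatory receptor (Gr) and ionotropic receptor (Ir) genes were followed across ribosome-bound and total RNA of the adult Drosophila melanogaster head. Genes were taken by name, as rows of the deposited expression table whose symbol is Or, Gr or Ir followed by a number and a letter, with more than 0 FPKM (fragments per kilobase of transcript, normalised to the mapped fragments of the library) in at least 1 of 6 groups. This gave 184 of the 15104 genes of the table, namely 59 Or, 63 Gr and 62 Ir genes, and 184 of 184 rows with such a name were above 0 in at least 1 group. The broadly required odorant co-receptor Orco has no number in its name and was treated as a partner gene.

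The 12 samples formed 6 groups of 2 replicates, an Input (total lysate RNA) and an IP (RNA bound to an antibody against GFP) for each of 3 genotypes. Neurons were represented by Elav-Gal4/+;UAS-GFP-L10A/+, glia by repo-Gal4/+;UAS-GFP-L10A/+ and fat body by UAS-GFP-L10A/+;takeout-Gal4/+. All 6 groups carried the same UAS-GFP-L10A transgene, a GFP-tagged ribosomal protein, in the background 2202U, and the Inputs came from the same tagged flies, so no group lacked the tag. Lysates were made from 1000 adult heads, and age was given only as adult. Each cell type was defined by 1 driver, and every replicate pooled 4 technical replicates. The authors deposited a single FPKM for each gene in each group, combining its replicates, so standard deviations and the spread between replicates could not be given, and sequencing depth was unknown. The only test was a q-value that the authors gave for each pair of IPs. Wherever 3 values of Inputs or IPs are listed, they are in the order neurons, glia, fat body.

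Insect chemoreceptors are expressed by sensory neurons whose dendrites lie in hair-like sensilla. Or proteins form ligand-gated cation channels together with Orco in olfactory neurons of the antenna and maxillary palp. Gr proteins detect sugars, bitter compounds and carbon dioxide, mainly in taste neurons of the labellum, legs and pharynx. Ir proteins are relatives of ionotropic glutamate receptors that pair with the co-receptors Ir8a, Ir25a or Ir76b and serve smell, taste, humidity and temperature sensing. Each tuning receptor is usually made by a small set of neurons. An intact head carries the antennae, palps and labellum but not the legs or wings. Whether the antennae and palps stayed on the collected heads was not assessed here.

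Known cell type genes were checked first. Glial markers (repo, nrv2, Gs2, wrapper) were at least 2-fold above Input in the glia IP for 4 of 4 genes, and so were 4 of 4 fat body markers (to, Yp1, Yp2, Lsp2) in the fat body IP. The fat body marker to was also above Input in the glia IP, at 55.8 against 9.32 FPKM, where it exceeded its fat body IP value (44.4 FPKM). The neuron IP differed: 0 of 4 neuronal markers (elav, n-syb, Syt1, brp) were 2-fold above Input and 3 of 4 were at least 2-fold below it, with elav at 15.0 FPKM in the Input and 3.48 FPKM in the IP. By the authors' deposited table, 3 of those 4 markers were higher in the neuron IP than in the glia IP at q under 0.05, and 0 were lower. Of 2 photoreceptor genes, Arr2 was at 3807 FPKM in the neuron Input and 12717 FPKM in the neuron IP. The other, ninaE, was at 5887 and 8528 FPKM, a log2 difference of 0.53 and so under 2-fold. Of 3 genes of the support cells of sensilla, lush was at 44.6 FPKM in the glia IP against 8.25 FPKM in the glia Input and Obp19d at 4469 against 588 FPKM, whereas nompA was at 0.104 against 0.268 FPKM and highest in the fat body IP (0.499 FPKM). Their part in the receptor values was not tested. Over all genes above 0, the glia Input stood somewhat apart from the other Inputs. Its Spearman's rho was 0.964 to the neuron and 0.976 to the fat body Input, where those 2 gave 0.990 with each other. The glia Input was the highest of the 6 groups for 28 of the 184 receptor genes, and for 51 under either rescaling. Rescaling to a common median or total raised this group most (log2 factors 0.64 and 0.67). The share of all genes highest there is not given here, so these counts have no baseline.

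Receptor genes were low throughout the head. Of the 184 genes, 24 (13.0%) reached 1 FPKM in at least 1 group, against 11181 of the 14098 genes above 0 in the table (79.3%). They were 10 Gr, 9 Ir and 5 Or genes. The number at 1 FPKM or more was 11 in the neuron Input, 8 in the glia Input and 12 in the fat body Input, and 16, 6 and 6 in the IPs of neurons, glia and fat body. The neuron IP held the most on the deposited scale, but not after rescaling, where it held 16 and the glia and fat body Inputs 17 each (common median) or 18 each (common total). Among all genes above 0 the neuron IP held the smallest share at 1 FPKM on the deposited scale (64.4%, against 65.9% to 74.6% in the other groups). Fewer cells of a type and less RNA per cell cannot be told apart in these bulk samples.

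**Figure D1:**
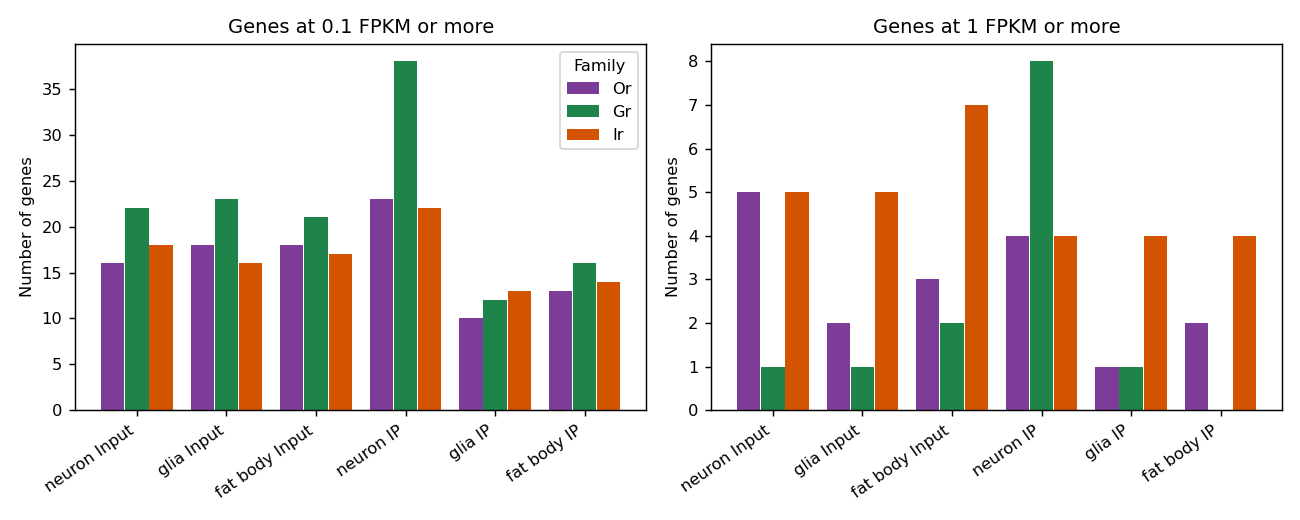
Number of Or, Gr and Ir genes at or above 0.1 FPKM and 1 FPKM in each of the 6 groups (bars start at 0; colours are receptor families). At 1 FPKM the neuron IP holds 16 genes, 8 of them Gr genes, and the glia and fat body IPs hold 6 each.

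The families differed in where this threshold was met. Gr genes at 1 FPKM or more numbered 1, 1 and 2 in the Inputs and 8, 1 and 0 in the matching IPs. Ir genes numbered 5, 5 and 7 in the Inputs and 4 in each of the 3 IPs, and Or genes 5, 2 and 3 in the Inputs and 4, 1 and 2 in the IPs. At the lower level of 0.1 FPKM the neuron IP held 83 receptor genes (38 Gr, 23 Or, 22 Ir), the IPs of glia and fat body 35 and 43, and the Inputs 56 or 57. In all, 97 of the 184 genes reached 0.1 FPKM in at least 1 group, and 3, namely Or43b, Ir76a and Ir68a, were at 1 FPKM or more in all 6 groups.

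A set of 9 genes passed 1 FPKM in the neuron IP and in no other group: Gr8a, Gr28b, Gr32a, Gr33a, Gr43a, Gr64c, Gr64e, Gr66a and Ir25a. The share of all genes that did so is not given here, so whether this number is unusual was not assessed. The genes nearest the threshold by their highest group were Ir51b (1.21 FPKM) and Gr33a (1.27 FPKM) just inside it and Gr64b (0.954 FPKM) and Or83a (0.939 FPKM) just outside. At the bottom of the range, the highest value of Ir7e was 0.00109 FPKM and that of Ir94g 0.00175 FPKM.

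**Figure D2:**
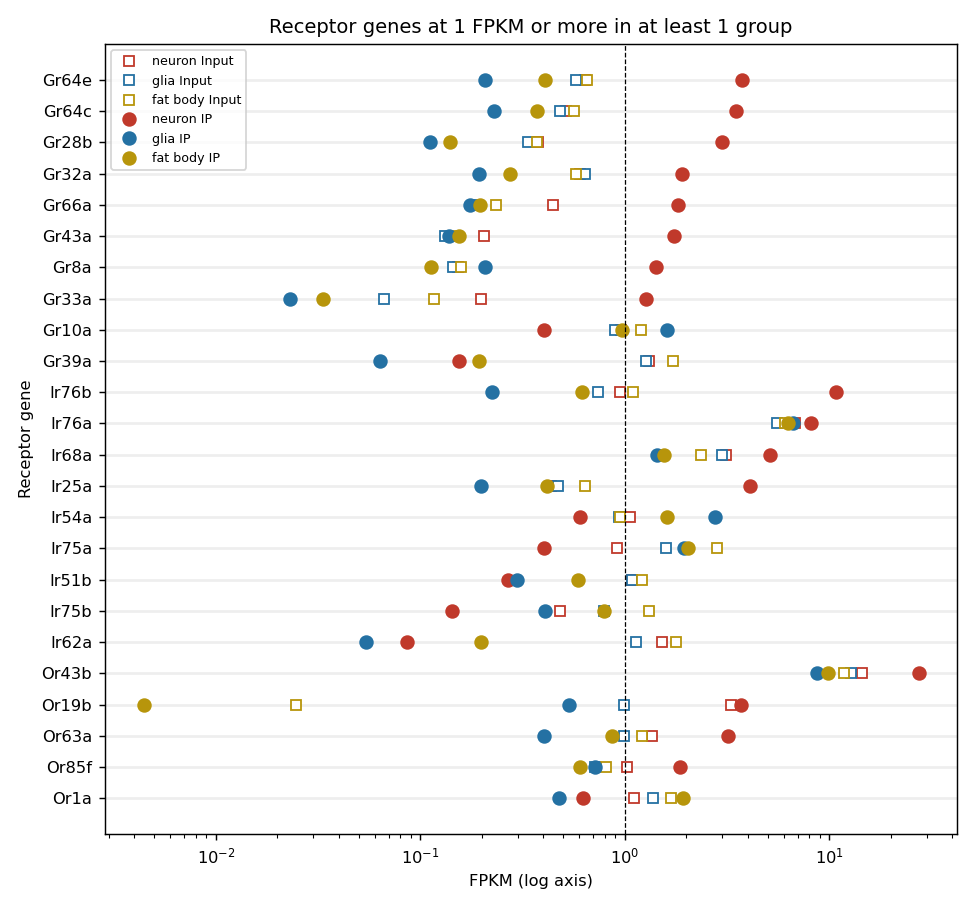
FPKM (log axis) of the 24 receptor genes that reach 1 FPKM, with open squares for Inputs, filled circles for IPs and a dashed line at 1 FPKM. The neuron IP circle lies to the right of the other groups for Gr64e (3.76 FPKM), Gr64c (3.51 FPKM) and Ir76b (10.8 FPKM), and to the left of the Inputs for Gr39a (0.154 FPKM) and Ir62a (0.0861 FPKM).

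Over every receptor gene, the neuron IP was the highest of the 6 groups for 95 of 184 genes (51.6%), where 25.4% of all genes above 0 had their highest value there. The share was 48 of 63 for Gr genes, 24 of 59 for Or genes and 23 of 62 for Ir genes. Low level alone was set beside this: among genes with a mean of 0.05 to under 1 FPKM, the neuron IP was highest for 41 of 75 receptor genes and for 14.5% of all genes in that range. When columns were rescaled to a common median or a common total, the count was 72 of 184 genes under either scaling (all genes 18.6% and 22.4%), with 41 of 63 Gr, 13 of 59 Or and 18 of 62 Ir genes. The counts of all 3 families were thus lower on the rescaled columns. The Or share was then 22.0%, close to that of all genes, while the Gr share was 65.1% and the Ir share 29.0%.

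The neuron IP exceeded its own Input, by any amount, for 122 of 184 receptor genes (66.3%) against 46.8% of all genes above 0. In the glia this held for 34 of 184 (18.5%; all genes 46.0%) and in the fat body for 37 of 184 (20.1%; all genes 48.1%). Under either rescaling the neuron count was 102 of 184, with 47 of 63 Gr, 27 of 59 Or and 28 of 62 Ir genes. The glia count became 20 (median) or 14 (total), and the fat body count 12 or 6. Both rescalings lower the IP against its Input for every gene in each cell type. The matching shares of all genes are not given here, so the rescaled counts have no baseline. Median FPKM over the 184 genes was 0.0716, 0.0181 and 0.0167 in the 3 IPs, and lay between 0.0350 and 0.0407 in the Inputs. Gr genes had a median of 0.169 FPKM in the neuron IP against 0.0448 FPKM in the neuron Input and 0.0191 FPKM in the glia IP. Medians of Or genes were 0.0419 FPKM in the neuron IP and 0.0382 FPKM in the neuron Input, and those of Ir genes 0.0487 and 0.0220 FPKM. The 184 genes summed to 0.0127%, 0.00414% and 0.00219% of all FPKM in the 3 IPs and to 0.00852% to 0.00881% in the Inputs.

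**Figure D3:**
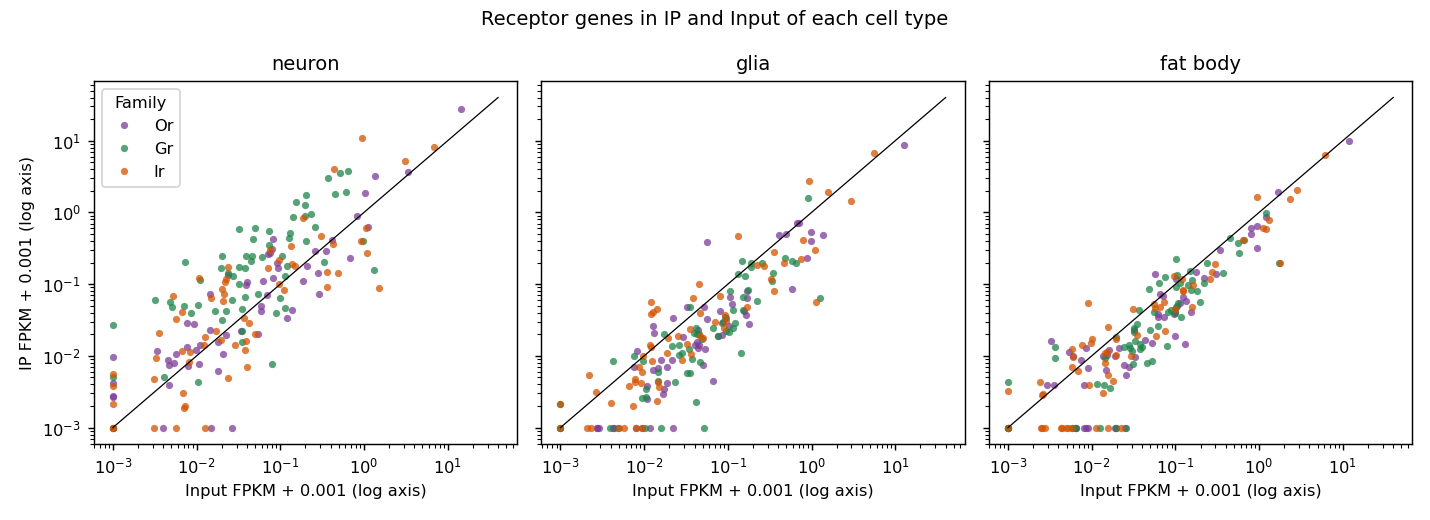
IP against Input for each of the 184 receptor genes in neurons, glia and fat body (both axes log, FPKM + 0.001, coloured by family; the line marks equal values). In the neuron panel 122 of 184 genes lie above the line, in the glia panel 34 and in the fat body panel 37.

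For size of change, differences of log2(FPKM + 1) between IP and Input were taken for the 24 genes at 1 FPKM or more, and 2-fold or more was counted. This scale understates the change of low genes and has no test. Of these 24 genes, 9 passed 1 FPKM through the neuron IP alone, so a higher neuron IP was partly fixed by the filter and the counts below are a description. In the neuron IP 7 of 24 were higher (Gr8a, Gr28b, Gr43a, Gr64c, Gr64e, Ir25a, Ir76b), where 19.0% of all genes were, and 2 were lower (Gr39a, Ir62a), where 13.1% were. In the glia IP 0 were higher (all genes 18.7%) and 2 were lower (19.7%), while for fat body 0 were higher (27.5%) and 2 were lower (10.2%). Gr39a and Ir62a were the 2 lower genes in each cell type. Rescaling to a common median shifts log2 IP minus Input by -0.59 in neurons, -0.51 in glia and -0.87 in fat body before the pseudocount, and total scaling by -0.57, -0.75 and -1.49. On the median scale 5 of the 24 genes were 2-fold higher in neurons and 2 were lower, and Gr8a and Gr43a, at log2 differences of 0.89 and 0.99, were no longer among them.

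Between IPs, the authors' deposited table gave q under 0.05 in at least 1 pair for 49 receptor genes. At that threshold in the authors' deposited table, 45 of 184 genes were higher in the neuron IP than in the glia IP (13.3% of all genes above 0) and 3 were lower (also 13.3%). Against the fat body IP, 22 were higher in the neuron IP (all genes 7.67%) and 2 lower (all genes 9.62%) by q in the authors' deposited table. Glia and fat body differed for 1 gene, Or19b, which was higher in the glia IP (all genes 10.5%), and 0 genes were lower (all genes 25.2%), again by q in the authors' deposited table. Within the 24 genes at 1 FPKM or more, the authors' deposited table called 10 higher and 3 lower in neurons than in glia (15.5% and 15.3% of all such genes), 9 and 2 against fat body (9.32% and 11.9%), and 1 and 0 for glia against fat body (12.9% and 31.6%). Some of these 24 genes passed 1 FPKM through the neuron IP alone. A higher neuron IP was thus partly fixed by the filter, and these counts are a description.

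The genes higher in the neuron IP than in the glia IP in the authors' deposited table comprised 25 Gr genes. These were Gr10b, Gr21a, Gr22b, Gr22e, Gr22f, Gr28b, Gr33a, Gr36a, Gr36b, Gr36c, Gr59c, Gr61a, Gr63a, Gr64a, Gr64b, Gr64c, Gr64e, Gr64f, Gr66a, Gr93a, Gr93b, Gr93c, Gr93d, Gr98b and Gr98d. A further 12 were Ir genes (Ir11a, Ir25a, Ir56d, Ir60c, Ir60d, Ir67b, Ir67c, Ir68a, Ir76b, Ir94b, Ir94e, Ir94f) and 8 were Or genes (Or13a, Or19b, Or22c, Or33c, Or42b, Or63a, Or83a, Or85e). Most of these were below 1 FPKM: 45 had a call over all genes above 0, and 10 did among genes at 1 FPKM or more. Genes lower in the neuron IP were Gr10a, Ir54a and Ir75a against glia, and Ir75a and Ir75b against fat body. The q was listed at exactly 1 in all 3 pairs for 59 of 184 receptor genes (32.1%) in the authors' deposited table, against 7.07% of all genes above 0.

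**Figure D4:**
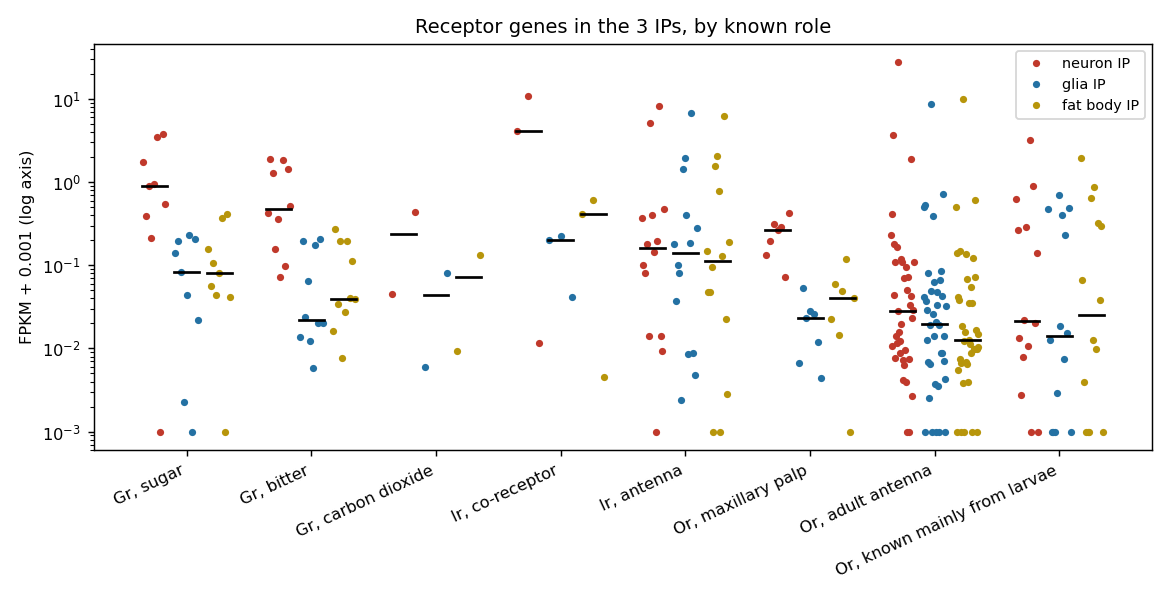
FPKM + 0.001 (log axis) in the 3 IPs of receptor genes grouped by known role; each point is 1 gene and black bars are medians. The neuron IP median lies at 0.884 FPKM for 9 sugar receptor genes and 0.470 FPKM for 10 bitter receptor genes, against 0.0828 and 0.0211 FPKM in the glia IP.

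On the log2(FPKM + 1) scale the ionotropic co-receptors Ir76b and Ir25a had the largest differences between neuron IP and Input of the 184 genes. Ir76b, which with Ir25a serves amine, salt and acid sensing, stood at 0.946, 0.741 and 1.10 FPKM in the Inputs and at 10.8, 0.225 and 0.614 FPKM in the matching IPs. The neuron IP was 11.4 times its Input (log2 difference 2.60) and 48.1 times the glia IP, whereas the glia and fat body IPs lay below their Inputs. Its q was listed as 0 against glia and 3.58e-06 against fat body in the authors' deposited table.

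Ir25a, the most broadly used of the co-receptors, had the same order among the IPs, with 0.434, 0.474 and 0.638 FPKM in the Inputs and 4.09, 0.198 and 0.417 FPKM in the IPs. Its neuron IP value was 9.43 times that of the Input, and the authors' deposited table gave q = 3.09e-10 against glia and 0.000553 against fat body. Ir8a, the co-receptor of acid-sensing antennal neurons, did not show this pattern and was low everywhere, from 0.00349 FPKM in the fat body IP to 0.0402 FPKM in the glia IP, with 0.0105 FPKM in the neuron IP. Orco resembled Ir25a in its IP levels, at 0.700, 0.541 and 0.853 FPKM in the Inputs and 4.41, 0.217 and 0.402 FPKM in the IPs. For Orco the log2 difference between neuron IP and Input was 1.67, and q was 8.98e-08 against glia and 0.00457 against fat body in the authors' deposited table.

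The 9 sugar receptor genes had a median of 0.884 FPKM in the neuron IP and 0.200 FPKM in the neuron Input. The neuron IP was the highest group for 8 of 9 (all genes above 0 25.4%). The same 8 of 9 count was found under both rescalings (all genes 18.6% by median and 22.4% by total scaling). By q in the authors' deposited table, 6 of 9 were higher in the neuron IP than in the glia IP (all genes 13.3%). Against the fat body IP 5 of 9 were (all genes 7.67%). Gr64e, a receptor of the Gr64 sugar cluster known for glycerol sensing, was at 0.638, 0.576 and 0.655 FPKM in the Inputs and at 3.76, 0.207 and 0.407 FPKM in the IPs. Gr64c, its neighbour in the cluster, was at 0.518, 0.484 and 0.563 FPKM in the Inputs and 3.51, 0.230 and 0.372 FPKM in the IPs. Both were high in 1 group alone, at 5.89 and 6.77 times the neuron Input. The authors' deposited table listed q = 4.54e-06 and 0.0352 for Gr64e and 2.15e-07 and 0.00435 for Gr64c, against glia and fat body respectively.

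The Gr64 genes lie side by side, and in the BDGP6 annotation Gr64c shares exon sequence with Gr64b and Gr64e with Gr64d, so reads could be divided between them uncertainly. Gr64d was listed at 0 in all groups but the fat body Input (0.00485 FPKM), while Gr64b reached 0.954 FPKM in the neuron IP. Gr64f, a partner needed for responses to many sugars, was at 0.549 FPKM in the neuron IP and 0.0731 FPKM in its Input, and Gr64a at 0.210 and 0.0433 FPKM. Gr61a, a sugar receptor encoded elsewhere, was at 0.884 FPKM in the neuron IP and 0.194 FPKM in its Input, with q = 0.000196 against glia in the authors' deposited table. Gr5a, the trehalose receptor, was less separated, at 0.393 FPKM in the neuron IP and 0.200 FPKM in its Input, and its q of 0.393 against glia in the authors' deposited table did not pass. Gr43a, a fructose sensor also found in the brain, stood at 0.205, 0.132 and 0.147 FPKM in the Inputs and 1.74, 0.138 and 0.154 FPKM in the IPs, 8.52 times its Input in neurons. Its q nevertheless was 0.845 against glia in the authors' deposited table. Gr43a shares exon sequence with Dhx15, which runs on the opposite strand and was at 27.6, 20.4 and 29.8 FPKM in the 3 IPs.

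Bitter receptors had their highest value in the neuron IP for 9 of 10 genes (all genes above 0 25.4%). Under either rescaling this held for 8 of 10 (all genes 18.6% by median and 22.4% by total scaling). By q in the authors' deposited table, 5 of 10 were higher in the neuron IP than in the glia IP (all genes 13.3%). Against the fat body IP 4 of 10 were (all genes 7.67%). Gr66a, present in nearly all bitter neurons, was at 0.445, 0.189 and 0.236 FPKM in the Inputs and 1.83, 0.175 and 0.196 FPKM in the IPs. Gr33a, a co-receptor for bitter and aversive contact cues, was at 0.197, 0.0662 and 0.116 FPKM in the Inputs and 1.27, 0.0231 and 0.0334 FPKM in the IPs. For both the neuron IP was the high group, and the neuron Input was also the highest of the Inputs, by 2.36 times over the lowest for Gr66a and 2.98 times for Gr33a. Against glia, q was 2.24e-05 for Gr66a and 2.83e-09 for Gr33a in the authors' deposited table, and against fat body 0.00774 and 0.000262.

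Gr32a, another widely used bitter receptor, was at 0.605, 0.643 and 0.576 FPKM in the Inputs and 1.91, 0.193 and 0.274 FPKM in the IPs. Gr8a, a receptor for the plant toxin canavanine, was at 0.153, 0.145 and 0.158 FPKM in the Inputs and 1.42, 0.208 and 0.113 FPKM in the IPs. Both were highest in the neuron IP, and neither passed in the authors' deposited table, where q against glia was 0.375 for Gr32a and 0.614 for Gr8a. Each shares exon sequence with a gene on the opposite strand that was at several FPKM or more in every group (CG6230 and CG12121). Gr93a, needed for caffeine responses, reached 0.520 FPKM in the neuron IP and Gr22e 0.420 FPKM, and both had q under 0.05 against glia and fat body in the authors' deposited table. Gr39a, whose identifier was not found in the BDGP6 annotation, ran the other way, at 1.31, 1.27 and 1.72 FPKM in the Inputs and 0.154, 0.0633 and 0.193 FPKM in the IPs. All 3 IPs were below all 3 Inputs for Gr39a, and its q against glia was listed as 1 in the authors' deposited table.

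Gr28b, a multi-transcript gene known for warmth and light sensing, stood at 0.375, 0.338 and 0.371 FPKM in the Inputs and 2.98, 0.111 and 0.140 FPKM in the IPs. The Inputs were nearly equal and the neuron IP alone was high, with q = 1.21e-05 against glia and 0.0411 against fat body in the authors' deposited table. The carbon dioxide receptors Gr63a and Gr21a, which work as a pair, reached 0.432 and 0.0445 FPKM in the neuron IP, against 0.127 and 0.0337 FPKM in the neuron Input. On the deposited scale both were highest in the neuron IP, but under either rescaling Gr21a was highest in the neuron Input, and 2 of 2 had q under 0.05 against glia in the authors' deposited table.

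Clusters of related Gr genes were examined next. Of genes sharing a name stem, the 6 Gr22 genes lay between 0.0384 and 0.862 FPKM in the neuron IP, the 4 Gr36 genes between 0.0499 and 0.204 FPKM and the 4 Gr93 genes between 0.175 and 0.599 FPKM. The neuron IP was the highest group for 6 of 6 Gr22, 4 of 4 Gr36, 4 of 4 Gr93 and 3 of 4 Gr98 genes on the deposited scale. The share over all genes above 0 was 25.4%. Of these genes, Gr22c moved to the glia Input under either rescaling. Glia IP values were at most 0.0274 FPKM in these 4 clusters. By q against glia in the authors' deposited table, 3 Gr22, 3 Gr36, 4 Gr93 and 2 Gr98 genes passed (13.3% of all genes were higher in the neuron IP). The Gr59 and Gr58 genes were more mixed, with the neuron IP highest for 4 of 6 and 2 of 3, glia IP values up to 0.194 and 0.0177 FPKM, and 1 and 0 genes called against glia in the authors' deposited table. Members of a cluster are related in sequence and are not independent observations. In contrast, the 4 Ir52 genes were at most 0.00450 FPKM in the neuron IP, and the neuron IP was the highest group for 0 of 4.

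Antennal Ir genes did not follow the co-receptors as a group, with the neuron IP highest for 4 of 14 (all genes 25.4%) and for 0 of 14 under either rescaling. Ir76a, a partner of Ir25a and Ir76b in amine-sensing neurons, was the highest Ir gene in each Input, at 6.83, 5.56 and 6.10 FPKM, and was at 8.13, 6.68 and 6.30 FPKM in the IPs. All 6 values were within a narrow range, the fat body Input being highest after either rescaling, with q from 0.973 to 0.987 over the 3 pairs in the authors' deposited table. Ir76a shares exon sequence with CG14102 on the opposite strand, which was at 3.90, 1.92 and 1.56 FPKM in the IPs. Ir68a, required for moist-air sensing, was at 3.12, 2.99 and 2.36 FPKM in the Inputs and 5.16, 1.44 and 1.55 FPKM in the IPs. On the deposited scale the neuron IP was highest (the glia Input was under either rescaling) and both other IPs were below their Inputs, with q = 0.00828 against glia and 0.0334 against fat body in the authors' deposited table.

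The acid receptors Ir75a and Ir75b were lowest in neurons. Ir75a was at 0.920, 1.59 and 2.84 FPKM in the Inputs and 0.402, 1.95 and 2.04 FPKM in the IPs. Ir75b was at 0.483, 0.791 and 1.32 FPKM in the Inputs and 0.142, 0.406 and 0.788 FPKM in the IPs. The neuron value was the lowest of the 3 in both fractions for both genes, so the Inputs differed in the direction of the IPs. In the authors' deposited table Ir75a had q = 0.00393 against glia and 0.00554 against fat body, and Ir75b had 0.149 and 0.0306. The adjoining gene cln3 was at 4.30, 25.0 and 6.27 FPKM in the IPs. Among antennal Ir genes 1 was higher and 1 lower in the neuron IP than in the glia IP by q in the authors' deposited table (all genes 13.3% each).

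Other Ir genes at 1 FPKM have no well-described role. Ir62a was at 1.51, 1.13 and 1.78 FPKM in the Inputs and 0.0861, 0.0545 and 0.199 FPKM in the IPs, so every IP was below every Input. It lies within an intron of Iml1 on the same strand, and Iml1 itself was at 9.66 FPKM in the neuron Input and 11.6 FPKM in the neuron IP. Ir51b, within an intron of row on the opposite strand, was likewise lower in the IPs, at 1.09, 1.09 and 1.21 FPKM in the Inputs and 0.270, 0.298 and 0.594 FPKM in the IPs. Ir54a showed a glial maximum, at 1.06, 0.937 and 0.943 FPKM in the Inputs and 0.605, 2.75 and 1.62 FPKM in the IPs, with q = 0.0380 for neurons against glia in the authors' deposited table. It shares exon sequence with sub on the opposite strand, which was also highest in the glia IP (1.52 FPKM). Gr10a was also highest in the glia IP, except under total scaling (fat body Input), at 0.962, 0.897 and 1.20 FPKM in the Inputs and 0.402, 1.61 and 0.967 FPKM in the IPs, with q = 0.0234 against glia in the authors' deposited table. It shares exons with the antennal odorant receptor Or10a, which was at 0.228, 0.505 and 0.497 FPKM in the IPs.

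Odorant receptors were grouped by the organ they are known from, and differences between the organs were not tested. The neuron IP was the highest group for 7 of 7 genes of the maxillary palp, 13 of 38 genes of the antenna and 4 of 14 genes known mainly from larvae. The share over all genes above 0 was 25.4%. After either rescaling the counts were 4 of 7, 6 of 38 and 3 of 14 (all genes 18.6% by median and 22.4% by total scaling). Palp receptor genes lay between 0.0709 and 0.419 FPKM in the neuron IP with a median of 0.268 FPKM, against 0.0793 FPKM in the neuron Input and 0.0222 FPKM in the glia IP. Or85e was highest among them in the neuron IP and passed against glia (q = 0.00011) and fat body (q = 0.0412) in the authors' deposited table, and Or33c passed against glia alone (q = 0.00936; 0.202 against fat body). For the 38 antennal genes the median was 0.0275 FPKM in the neuron IP and 0.0194 FPKM in the neuron Input. By q in the authors' deposited table, 3 of 38 were higher in the neuron IP than in the glia IP, a smaller share than the 13.3% of all genes above 0. The median over all genes above 0 was 4.66 FPKM in the neuron IP. These shares thus compare genes of unlike level, and the difference was not tested.

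Or43b, an antennal receptor for fruit esters, had the highest FPKM of all 184 genes in every group, at 14.4, 12.8 and 11.8 FPKM in the Inputs and 27.4, 8.73 and 9.87 FPKM in the IPs. The neuron IP was the high group by 1.90 times over its Input, and q was 0.384 against glia and 0.432 against fat body in the authors' deposited table. Or43b shares exon sequence with Cul1, a widely expressed ubiquitin ligase subunit on the opposite strand at 60.9, 40.5 and 52.9 FPKM in the IPs. No statement that the counting used strand was found in the sources used here, so reads of the 2 genes cannot be told apart.

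Or19b had the most unequal Inputs of the receptor genes above 0 in every Input and at 0.1 FPKM or more in 1. It was at 3.31, 0.987 and 0.0246 FPKM in the Inputs and at 3.70, 0.532 and 0.00443 FPKM in the matching IPs. Inputs and IPs had the same order of neuron, glia, fat body, although under either rescaling the neuron IP was below its Input. The highest Input was 135 times the lowest, and of the 10760 genes at 1 FPKM or more in an Input, 46 (0.428%) had at least this ratio or a lowest Input of 0. For Or19b the authors' deposited table gave q = 0.000351 for neurons against glia, 3.44e-05 for neurons against fat body and 0.00444 for glia against fat body, and the Inputs, which no purification separates, differed in the same order. The nearly identical copy Or19a, which with Or19b responds to citrus odours, was at most 0.00975 FPKM, and reads of the pair may be divided uncertainly. The neighbouring genes were low too, with fd19B at most 0.0380 FPKM and CG42581 at 0.0690 FPKM in the neuron Input and listed at 0 elsewhere.

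**Figure D5:**
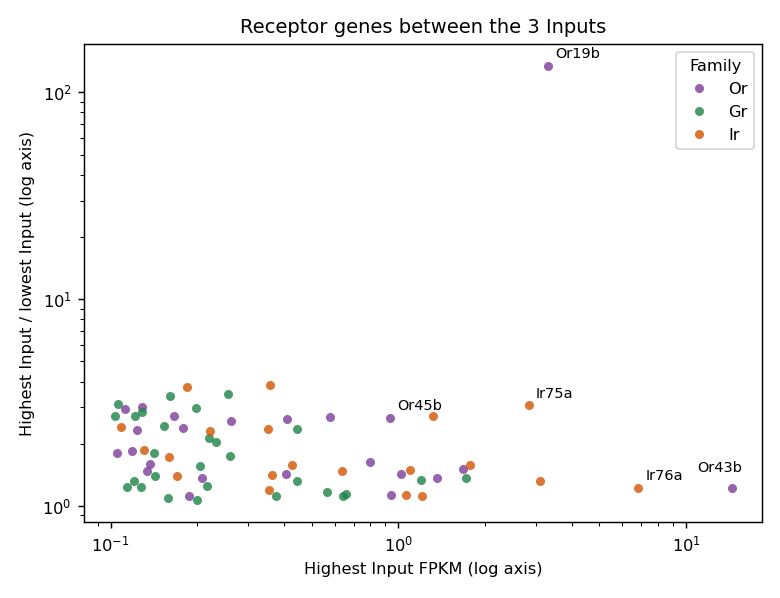
Highest over lowest Input FPKM against the highest Input FPKM (both axes log) for receptor genes above 0 in every Input and at 0.1 FPKM or more in 1. Or19b lies at a ratio of 135, apart from the other genes, and Ir75a at 3.09.

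Other receptor genes differed less between Inputs. Among the 44 at 0.1 FPKM or more in every Input, 10 had a highest Input at least 2 times the lowest, against 19.7% of all genes at that level. Across the 184 genes, Spearman's rho between pairs of Inputs was 0.921 to 0.938, between the neuron and glia IPs 0.659 and between the glia and fat body IPs 0.858. Over all genes above 0 the neuron and glia IPs gave 0.906. These are descriptions over genes that share library and scaling.

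The remaining Or genes at 1 FPKM were Or63a, Or85f and Or1a. Or63a, a receptor of larval olfactory neurons, was at 1.36, 0.992 and 1.21 FPKM in the Inputs and 3.20, 0.402 and 0.866 FPKM in the IPs, with q = 0.000836 against glia and 0.125 against fat body in the authors' deposited table. Or85f, an antennal receptor, was at 1.02, 0.716 and 0.808 FPKM in the Inputs and 1.87, 0.714 and 0.604 FPKM in the IPs, and its q of 0.123 against glia in the authors' deposited table did not pass. Both were highest in the neuron IP. Or1a, also larval, was highest in the fat body IP on the deposited scale and in the fat body Input under either rescaling, at 1.11, 1.37 and 1.68 FPKM in the Inputs and 0.624, 0.476 and 1.93 FPKM in the IPs. It lies in an intron of CG3777 on the same strand, and its q of 0.402 between glia and fat body in the authors' deposited table did not pass.

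Overlap with other genes, which the selection by name did not use, was looked up. Of the 184 identifiers, 181 were found in the BDGP6 annotation; 29 shared exon sequence with another gene and 19 more overlapped one in introns only. Of the 24 genes at 1 FPKM or more, 9 shared exons and 3 overlapped in introns only. Without overlapping genes the number at 1 FPKM or more in the neuron IP was 9 instead of 16, and it was 5, 3 and 6 in the Inputs. Gr2a, Gr22c and Gr39a, the 3 genes not matched, were kept in that count, and whether they overlap a gene was not analysed here.

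Partner genes of chemosensory neurons were uneven. Of the 7 olfactory accessory genes, 1 of 5 tested (Orco) was 2-fold above Input in the neuron IP (all genes 19.0%), and 2 of 5 (lush, an odorant-binding protein, and Est-6, an esterase) were in the glia IP (all genes 18.7%). Est-6 was at 41.7, 226.8 and 250.7 FPKM in the IPs. Of 8 ion channel genes of taste neurons, 1 of 6 tested was 2-fold higher in the neuron IP (all genes 19.0%), ppk23 of pheromone-sensing neurons, at 0.531 FPKM in the Input and 2.29 FPKM in the IP. For ppk23 q was 5.03e-06 against glia and 0.0135 against fat body in the authors' deposited table, and pain, the highest of the list, was 2-fold higher in the glia IP (23.9 FPKM, Input 7.76 FPKM). The water-sensing channel ppk28 was at 1.74 FPKM in the neuron Input and 3.90 FPKM in the neuron IP, and ppk19 at 0.872 and 2.68 FPKM.

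Cilium and dendrite genes gave 0 of 6 tested at 2-fold in any IP against its Input. Of all genes, 19.0%, 18.7% and 27.5% were higher and 13.1%, 19.7% and 10.2% lower in neurons, glia and fat body. Oseg6 was at 0.713 FPKM in the neuron Input and 1.76 FPKM in the IP, and Oseg5 at 0.377 and 1.21 FPKM. Oseg1 was at 2.01 and 3.14 FPKM and the regulator Rfx at 6.44 and 6.08 FPKM. By q in the authors' deposited table, 3 of 14 cilium genes (nompB, osm-1, nan) were higher in the neuron IP than in the glia IP (all genes 13.3%). Of 8 transcription factors of receptor choice tested, 4 were at least 2-fold below Input in neurons (all genes 13.1%), 3 in glia (19.7%) and 5 in fat body (10.2%), and 0 were higher (19.0%, 18.7% and 27.5%). Eip93F was at 17.3 FPKM in the neuron Input and 0.199 FPKM in the IP and scrt at 4.98 and 0.134 FPKM, while onecut was at 24.0 and 6.54 FPKM and pdm3 at 15.3 and 7.66 FPKM. Against glia, 4 of 9 factors were higher in the neuron IP by q in the authors' deposited table (all genes 13.3%), among them ato (1.17 against 0.0796 FPKM, q = 7.68e-06).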

How the data were processed

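PolyA RNA of Input and IP was sequenced as paired-end reads. Per the submitters' processing notes, TopHat2 2.0.6, Cufflinks 2.0.2 and Cuffdiff 2.0.2 were used with BDGP5; how these were combined, and the annotation release, are not given in the sources used here. The authors deposited FPKM per gene and group, with both replicates combined, and q-values for the 3 IP pairs. The direction of a q call was read from FPKM, and Cuffdiff scales libraries internally, so sign and test can rest on different scales. Depth is unknown, so no interval was computed.

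Calculations used Python 3.11.15, numpy 2.4.6, pandas 2.3.3 and scipy 1.17.1 (figures with matplotlib 3.10.9), tested on simulated data. Log2 values used a pseudocount of 1. Counts at 2-fold used genes at 1 FPKM or more in a group, without those listed at 0 in either group compared. Overlaps and neighbours came from BDGP6 by gene identifier (181 of 184), without coordinates. Genes are named if at 1 FPKM or more, if q is under 0.05, if a co-receptor, or if highest in their family, role or list; a few others are given as examples. Members, the 9 role lists and 4 gene lists were chosen with earlier results of these data known.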

Additional observations from a re-analysis of the deposited data

How the results depend on the processing

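Of 60 counts recomputed, 28 stayed within 1.5 times. The 72 log2 differences of single genes were each recomputed under 3 settings (216 values). Those under 2-fold gave 19 sign changes, all under a rescaling. The 13 of 2-fold or more gave 0, which was fixed beforehand and says nothing about robustness. A changed pseudocount cannot turn a sign. Rescaling only lowered IP against Input, by log2 shifts of -0.59 or -0.57 in neurons, where all the 2-fold higher ones lay. Median or total scaling moved the highest group of 3 of the 16 genes at 1 FPKM that were highest in the neuron IP (Ir68a, Ir76a, Or19b) to an Input. At a pseudocount of 0.1, genes 2-fold different numbered 17 (11 higher, 6 lower) in neurons and 11 (1 higher, 10 lower) in glia. Median scaling gave 5 in glia, total scaling 6 in glia and 9 in fat body, all lower. Leaving out genes that overlap another gene, an alternative chosen after seeing the data for the comparisons, gave 4 in neurons, 1 in glia and 1 in fat body. For q in the authors' deposited table, no filter on low values gave 48 against glia and 24 against fat body, q under 0.01 gave 7 against fat body, and requiring 1 FPKM in a compared group gave 0 for glia against fat body. Genes detected (3 Inputs, then 3 IPs, in the order neurons, glia, fat body) numbered 19, 20, 21, 28, 10 and 13 at 0.5 FPKM, 4, 3, 4, 10, 3 and 3 at 2 FPKM, and 5, 3, 6, 9, 2 and 2 without overlapping genes; median and total scaling gave 17 and 18 in the glia Input. Filters and overlaps change the genes counted by construction; for the other settings the cause was not tested. No paired analysis was possible because the table holds 1 value per gene and group, and leaving out replicates was not possible for the same reason. Protein length, identity and chromosome were not analysed here.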
